A study of Mus musculus and Rattus norvegicus with 37 samples.

Results

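Bile acid synthesis, transport and feedback in the liver were followed through 10 genes in 37 liver RNA-seq libraries, 21 from mice and 16 from rats. They are the 4 cytochrome P450 enzymes Cyp7a1, Cyp8b1, Cyp27a1 and Cyp7b1, the conjugating enzyme Baat, the transporters Slc10a1, Abcb11 and Abcb4, and the nuclear receptors Nr1h4 and Nr0b2. They were picked by name, as genes of this pathway and not by a threshold on values, although earlier results of these data were known, out of 59942 gene names over the 4 deposited tables. All 10 were listed among the 47929 usable names of each mouse table, and 9 among the 28026 of each rat table, where Abcb4 was not listed under that name.

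The mice were female, on a C57BL/6J background, on chow and not fasted. WT mice were 9 to 11 weeks old, whereas floxed littermates and mice labelled L-Sirt1 KO (liver-specific knockout of the deacetylase Sirt1, Cre driver not given in the sources used here) were 15 to 20 weeks old. Mice had received 1 subcutaneous dose of LNA29, a mixture of locked nucleic acid inhibitors of miR-29a and of miR-29b/c at 20 mg/kg each, or saline, and livers were taken on day 7. The WT/Floxed groups held 8 LNA29 mice (4 WT, 4 floxed) and 5 saline mice (3 WT, 2 floxed, 1 further floxed saline mouse having been left out by the authors), and the L-Sirt1 KO groups held 4 mice each. The rats were male and fed. Zucker Fatty rats (ZFR), obese fa/fa animals that lack a working leptin receptor, were compared with Zucker Lean rats (ZLR) at 5.5 months, and ZFR of 3 months given the branched-chain ketoacid dehydrogenase kinase inhibitor BT2 (20 mg/kg daily by intraperitoneal injection for 1 week) with ZFR given DMSO vehicle, at 4 rats a group. Values were normalized counts, that is, estimated reads divided by a factor for each library, and only groups within 1 table were compared.

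Depth differed greatly between species. From the value of 1 read, mouse libraries held about 42.6 to 78.0 M (10 to the power 6) reads. Rat libraries held 0.188 to 58.5 M, of which ZLR replicates 3 and 4 held 0.188 and 0.189 M and ZFR vehicle replicate 4 held 0.193 M. A floor of 3 reads corresponded to at most 4.12 normalized counts in mice, but to 31.6, 31.3 and 31.0 in those 3 rat libraries. Reads are not independent molecules here, so such floors cover counting error only. Albumin was the most abundant of 8 hepatocyte markers in every group. Sirt1 itself stood at 534.6 to 616.5 normalized counts in mice labelled L-Sirt1 KO and at 492.7 to 699.1 in WT/Floxed mice. The ranges overlapped, with means of 562 (LNA29) and 586 (saline) in the former and 607 and 591 in the latter. These tables were normalized separately. Counts over the whole gene need not fall when part of it is deleted, so the labels were not checked by these counts. The paper reports an RT-qPCR of hepatic Sirt1 in both genotypes, which was not used here.

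Bile acids are made from cholesterol in hepatocytes, are joined to taurine or glycine, pumped into bile, reabsorbed in the ileum and taken up again from portal blood. The classical route starts with Cyp7a1, the rate-limiting enzyme, and its product mix is set by the sterol 12-hydroxylase Cyp8b1, while the alternative route runs through Cyp27a1 and Cyp7b1. Bile acids feed back through the receptor FXR, encoded by Nr1h4, which induces the repressor SHP (Nr0b2) and the export pump Abcb11.

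The inhibitors act on 3 mature miRNAs that share a seed, the stretch that pairs with target transcripts. They are shown because transcripts with a site that matches the seed are those miR-29 could pair with, and the seed (bases 2 to 8) is in capitals. The sequences are those of RefSeq on mouse build GRCm38.p6, from chr6:31062673-31062694 (minus strand) for miR-29a-3p, chr1:195037091-195037113 (plus) and chr6:31063025-31063047 (minus) for miR-29b-3p and chr1:195037600-195037621 (plus) for miR-29c-3p.
miR-29a-3p: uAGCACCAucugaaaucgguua
miR-29b-3p: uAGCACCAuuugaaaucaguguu
miR-29c-3p: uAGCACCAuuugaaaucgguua

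A 7-base match to that seed, TGGTGCT, was searched for in the longest annotated 3′ UTR of each gene (GENCODE M21, GRCm38). None of the 10 bile acid genes held it, with UTRs from 51 bases (Abcb4) to 2600 bases (Cyp7a1). Of all 21139 genes with such a UTR, 14.1% held at least 1. The collagens Col1a1 and Col3a1, used here as checks of the inhibitor, held 1 each, both followed by an A. Their sites are printed with the match in capitals, at chr11:94952523-94952551 and chr1:45348967-45348995, plus strand.
Col1a1 site: gtgggaaggaatttcTGGTGCTatagaag
Col3a1 site: ttcaaaatgtctcaaTGGTGCTataataa

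FXR binds with its partner RXR to an inverted repeat, in which AGGTCA and its reverse complement are spaced by 1 base of any kind, so that it reads the same on both strands. RefSeq promoter windows (250 bases before to 50 after the start, GRCm38.p6) were matched for 7 of the 10 genes, as 8 windows. One, that of Abcb11, held the repeat with 1 mismatch, T4C counted from the 5′ end of the motif, starting 63 bases before the annotated start. With at most 1 mismatch the repeat was found in 27 of all 32851 windows, or 0.0822%. The run below lies at chr2:69342659-69342687, minus strand, with the repeat in capitals. AGGTCA alone (either strand) was found in 3 of the 8 windows, those of Abcb11 (as part of the repeat), Nr1h4 and Slc10a1, against 16.3% of all windows. These are matches of letters and not measured binding.
Abcb11 promoter: tggactttAGGCCATTGACCTataagcaa

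On GRCm38 the genes lie at chr4:6265612-6275633 (Cyp7a1), chr9:121914356-121916305 (Cyp8b1), chr1:74713574-74737892 (Cyp27a1), chr3:18071950-18243338 (Cyp7b1) and chr4:49489422-49506557 (Baat). The transporters lie at chr12:80953183-80968705 (Slc10a1), chr2:69238282-69342616 (Abcb11) and chr5:8893717-8959231 (Abcb4), and the receptors at chr10:89454234-89533585 (Nr1h4) and chr4:133553376-133556536 (Nr0b2). All are protein coding. Abcb11 overlaps the antisense gene Gm13613 and a pseudogene on the other strand, Abcb4 overlaps a pseudogene on its own strand, and Cyp7b1 overlaps the snRNA gene Gm23686 on its own strand. The strand setting of the counting was not stated, so reads of Abcb11 and Gm13613 could not be told apart.

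Levels of different genes were compared per kilobase of exon. In WT/Floxed saline mice the bile acid importer Slc10a1 stood highest, at 16156 ± 1384 normalized counts per kb (SD, n = 5), followed by Cyp27a1, a mitochondrial hydroxylase, at 14544 ± 677. The ranges of these neighbours overlapped. Baat, which joins bile acids to amino acids, stood at 9358 ± 661 and Abcb11 at 8846 ± 1236, again with overlapping ranges, and Cyp8b1 at 6053 ± 2854. Nr1h4 at 2411 ± 146 and Nr0b2 at 2237 ± 450 lay next and overlapped. Cyp7a1 at 1458 ± 650 and Abcb4, the phospholipid exporter, at 1443 ± 260 came after them. Cyp7b1, the oxysterol 7-hydroxylase, was lowest at 914 ± 90.5, below every mouse's Abcb4. The exons of Abcb4 span 9383 bases with all annotated transcripts and its longest coding transcript 4079. Per kb of the latter its level was 3319 ± 598.

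**Figure D1:**
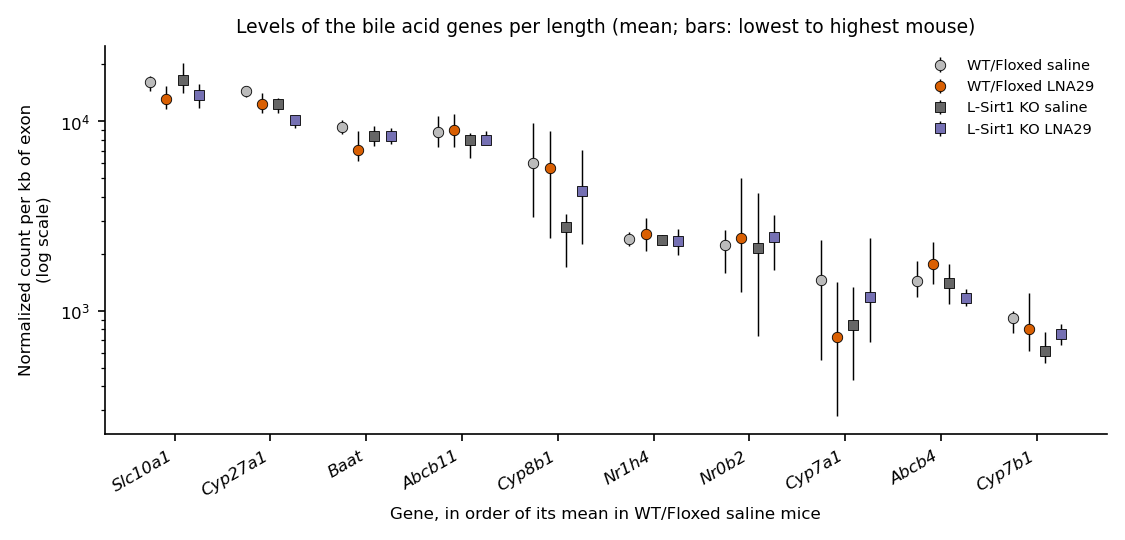
Normalized counts per kb of exon (log axis) of the 10 bile acid genes in the 4 mouse groups, as means with bars from the lowest to the highest mouse. Slc10a1 and Cyp27a1 stand highest in every group, and the bars of Cyp7a1, Cyp8b1 and Nr0b2 are the longest, while those of Cyp27a1 are short.

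The genes also differed in how far single mice of 1 group lay apart. Among the 5 WT/Floxed saline mice, Cyp7a1 differed 4.28-fold from lowest to highest and Cyp8b1 3.13-fold, against 1.13-fold for Cyp27a1 and 1.18-fold for Nr1h4 and 1.19-fold for Baat. Among the 8 LNA29 mice the widest ranges were again those of Cyp7a1 (5.14-fold), Nr0b2 (4.01-fold) and Cyp8b1 (3.67-fold). With saline, Nr0b2 differed 1.68-fold. In mice labelled L-Sirt1 KO, Cyp7a1, Cyp8b1 and Nr0b2 differed 3.10-, 1.92- and 5.70-fold with saline and 3.53-, 3.16- and 1.95-fold with LNA29. In mice of both genotypes these 3 genes thus differed most between mice of 1 group.

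The effect of miR-29 suppression was asked first in WT/Floxed mice. Of the 10 genes, 2 fell with LNA29, Baat and Slc10a1, and none rose, by limma on log2(normalized count + 1) with the criteria p below 0.05, adjusted p below 0.2, mean above 50 and fold above 1.2. Over all 15811 genes tested, 4.35% passed these criteria, 2.42% as higher and 1.93% as lower. Of the 10, 5 had an unadjusted p below 0.05, against 13.3% of all genes, and the median log2 change of the 10 was -0.14, against 0.00 over all genes. No member had groups that did not overlap, against 1.51% of all genes. Col1a1 and Col3a1 rose, by 0.87 (SE 0.25, adjusted p = 0.123) and 1.19 (SE 0.22, adjusted p = 0.0162) in log2 units.

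Baat showed the clearest change. Its normalized counts were 18130, 17246, 16608, 19721 and 19109 in the 5 saline mice, and 11955, 12877 and 17359 (lowest, median, highest) in the 8 LNA29 mice. Of these, 7 lay below every saline mouse and the eighth within the saline range. The mean went from 18163 ± 1283 to 13658 ± 1849, a log2 change of -0.42 (SE 0.09, adjusted p = 0.0331), and an exact two-sided permutation test gave p = 0.00466, where the smallest this design allows is 0.00155. The call held in each of the 13 fits without 1 mouse, with adjusted p up to 0.0917. Among fits on fewer mice it was lost in WT mice alone, where the log2 change was -0.41 (adjusted p = 0.437). A term for replicate number also lost the call (adjusted p = 0.597).

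Slc10a1 encodes the sodium-dependent importer NTCP on the blood side of the hepatocyte. The saline mice had 37882, 31752, 32791, 38354 and 36855 normalized counts, and the LNA29 mice 25632 to 34007 with a median of 27238. Of the LNA29 mice, 6 lay below all saline mice, and 2 lay within the saline range. The log2 change was -0.30 (SE 0.09, adjusted p = 0.121, exact permutation p = 0.00932). It was close to the threshold, since dropping saline replicate 1, 4 or 5 or LNA29 replicate 5, 7 or 8, one at a time, lost the call (adjusted p 0.203 to 0.253). Fitting each background alone, setting no minimum mean or adding a term for replicate number (adjusted p = 0.742) lost the call too. The log2 change of Slc10a1 within WT and floxed mice was -0.28 and -0.32.

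Among the synthetic enzymes, Cyp27a1 had 33035, 32094, 29195, 31382 and 32318 normalized counts with saline and 24169 to 30580 with LNA29, with a median of 26208. Of the 8 LNA29 mice, 6 lay below every saline mouse. Its log2 change was -0.25 (SE 0.07, adjusted p = 0.122, exact permutation p = 0.00466), which is under the 1.2-fold criterion, and it met all criteria without LNA29 replicate 1 or 3 or saline replicate 3 (adjusted p 0.0515 to 0.134) and with sample quality weights. Cyp7a1 had 2313, 5423, 6394, 6391 and 9907 with saline and 1160, 2841 and 5966 with LNA29. Of the LNA29 mice 3 lay below the lowest saline mouse and the others within the saline range. The means were 6086 ± 2714 and 3029 ± 1484, a log2 change of -1.02 (95% interval -1.80 to -0.23) with an adjusted p of 0.224, so it did not pass the test, although it was the largest estimate among the 10. It did pass with background as a covariate (-1.04, adjusted p = 0.18), under which 988 of all genes passed, against 688 in the main fit. It also passed without saline replicate 1 (-1.33, adjusted p = 0.108) and without LNA29 replicate 3 (-1.18, adjusted p = 0.126). These were 2 of 13 fits without 1 mouse and 1 of 10 other alternatives, and the rest gave no call. Without saline replicate 5 the log2 change was -0.80, and adjusted p reached 0.381 among the fits without 1 mouse.

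The Cyp7a1 difference was also unequal between the 3 sequencing runs on which the libraries were spread. It was -1.35, 0.00 and -1.93 on the log2 scale in flow cells with 3 against 1, 3 against 2 and 2 against 2 mice. For Baat the same values were -0.41, -0.21 and -0.61, for Slc10a1 -0.26, -0.13 and -0.51 and for Cyp27a1 -0.19, -0.20 and -0.31, all of 1 sign.

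The other synthetic enzymes showed no change that passed. Cyp7b1 had 1654, 1980, 2167, 2089 and 2005 with saline and 1331 to 2696 with LNA29, a log2 change of -0.21 (interval -0.51 to 0.10). Cyp8b1 had 6093, 6337, 14356, 19095 and 13132 with saline and 4719 to 17335 with LNA29, a log2 change of -0.08 whose interval, from -0.83 to 0.67, leaves room for a change of either sign. In Cyp7b1, 4 of 8 LNA29 mice lay below every saline mouse and 1 above, and in Cyp8b1 1 lay below and none above.

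Nor did the exporters and receptors pass. Abcb4 had 14543, 11056, 13168, 17185 and 11747 with saline and 12975 to 21628 with LNA29, and 4 of 8 LNA29 mice lay above every saline mouse (log2 change 0.30, adjusted p = 0.341). With background as a covariate it passed as higher (0.32, adjusted p = 0.154). Under that setting 552 of all genes passed as higher, against 383 in the main fit. Abcb11, the bile salt export pump, had 46763, 54925, 37588, 42562 and 45781 against 37828 to 56183 (log2 change 0.03, interval -0.22 to 0.28). Nr1h4 changed by 0.08 (interval -0.13 to 0.28) and Nr0b2 by -0.02 (interval -0.67 to 0.62). For Abcb11 and Nr1h4 the intervals reached no further than 0.28 on the log2 scale on either side of 0, whereas that of Nr0b2 was wide.

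**Figure D2:**
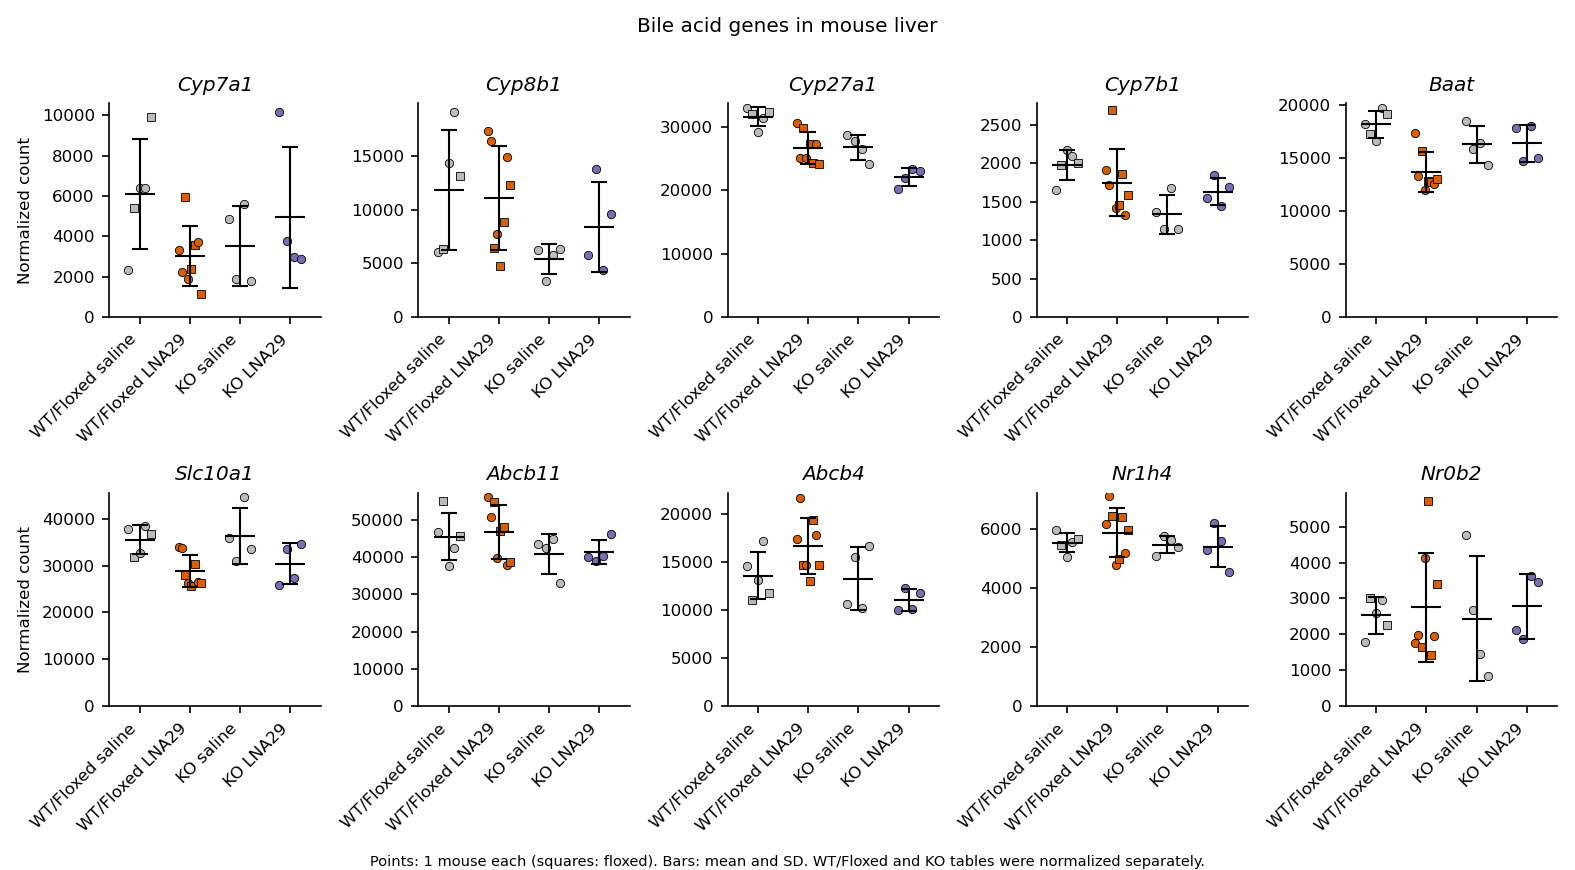
Normalized counts (linear axes from 0) of the 10 bile acid genes in each of the 21 mice, by group, with mean and SD, squares being floxed mice. In WT/Floxed mice the LNA29 points of Baat and Slc10a1 lie mostly below the saline points, while in mice labelled L-Sirt1 KO the groups do not overlap in Cyp27a1.

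In mice labelled L-Sirt1 KO, none of the 10 genes passed the same criteria, which 1.87% of the 15885 genes tested met. One gene, Cyp27a1, had an unadjusted p below 0.05, against 11.2% of all genes, and the median log2 change of the 10 was 0.01. Cyp27a1 had 28768, 27758, 26453 and 24106 normalized counts with saline and 20181, 21935, 23296 and 22991 with LNA29. The groups did not overlap, as in 6.95% of all genes, and the log2 change was -0.28 (SE 0.09, adjusted p = 0.266). The exact permutation p was 0.0286, the smallest that 4 against 4 mice allow. Col1a1 and Col3a1 rose in these mice by 1.71 and 1.74 (adjusted p = 0.00783 for both).

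Cyp7a1 had 4843, 1885, 5602 and 1809 with saline and 10132, 3751, 2990 and 2870 with LNA29 in these mice. One LNA29 mouse stood far above the other 3, which lay within the saline range, and the log2 change was 0.45 with an interval from -0.63 to 1.54. Without that mouse (LNA29 replicate 1) it was 0.037, and without any other 1 mouse up to 0.74. Baat had 18475, 15858, 16383 and 14335 against 17761, 14736, 17953 and 14967, with fully overlapping groups (log2 change 0.01, interval -0.23 to 0.24). Slc10a1 had 35922, 30894, 44652 and 33509 against 25902, 33570, 27378 and 34678, and 2 of 4 LNA29 mice lay below all saline mice (log2 change -0.25, adjusted p = 0.545, and -0.15 without saline replicate 3).

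Of the remaining genes in these mice, Cyp8b1 (0.54), Nr0b2 (0.42) and Cyp7b1 (0.30) had positive estimates and Abcb4 (-0.24) a negative one, all with intervals that included 0. With 1 mouse left out, Cyp7b1 ran from 0.23 to 0.42 and Abcb4 from -0.35 to -0.11. Without LNA29 replicate 2 Cyp8b1 stood at 0.25, and without saline replicate 4 Nr0b2 stood at 0.0064, against 0.84 without saline replicate 1. Cyp8b1 had 6228, 3314, 5741 and 6360 with saline and 5780, 13802, 4372 and 9558 with LNA29, where 2 mice lay above the saline range. Nr0b2 ranged from 837 to 4773 with saline, wider than the 1870 to 3640 with LNA29. Abcb11 and Nr1h4 stood at 0.02 and -0.02, with intervals within 0.28 of 0.

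Whether the response to LNA29 differed between genotypes was tested as the difference of both within-table changes (KO minus WT/Floxed), so that the levels of the separately normalized tables were not compared. None of the 10 genes passed at an adjusted p below 0.2, as 0.0449% of 15601 genes did (7 genes, with 9.14% of genes at an unadjusted p below 0.05). Among the 10, 4 had an unadjusted p below 0.05. They were Baat with a difference of 0.43 (SE 0.14, adjusted p = 0.355), Cyp7a1 with 1.47 (SE 0.65, adjusted p = 0.492), Cyp7b1 with 0.51 (SE 0.22, adjusted p = 0.475) and Abcb4 with -0.53 (SE 0.22, adjusted p = 0.449). For Slc10a1 and Cyp27a1 the difference was 0.05 (interval -0.28 to 0.38) and -0.03 (interval -0.25 to 0.20). In this fit the response of Baat was thus not shown to differ between genotypes at that threshold. Floxed and L-Sirt1 KO mice were older than WT mice, which the difference of changes does not account for if age alters the response. Floxed mice alone against L-Sirt1 KO gave no call among the 10 either, with only 2 floxed saline mice. In that fit 50 of all genes passed, against 7 with all mice. The part of age was not tested. Without WT/Floxed LNA29 replicate 1, Baat alone passed, with 0.48 (adjusted p = 0.152). With sample quality weights 3 of the 10 passed, as did 1220 of all genes. They were Baat (0.50, adjusted p = 0.0731), Cyp7b1 (0.60, adjusted p = 0.145) and Abcb4 (-0.57, adjusted p = 0.183).

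**Figure D3:**
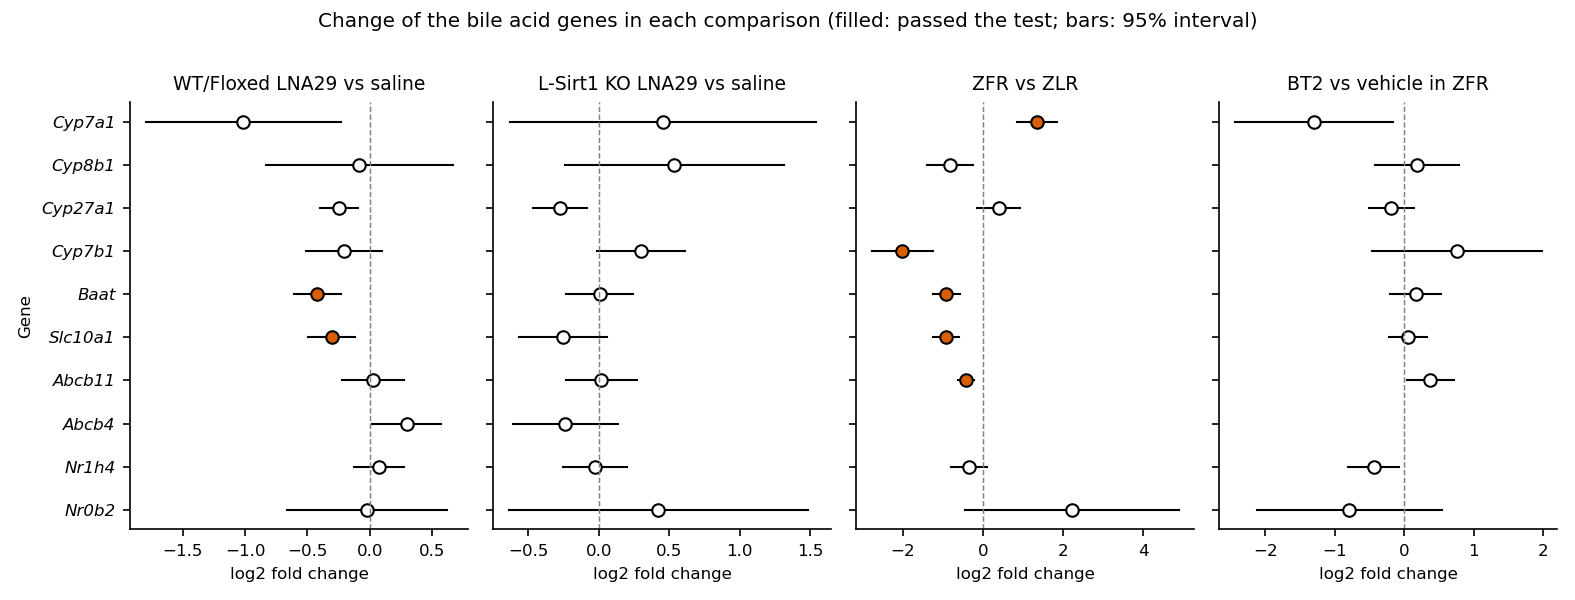
Log2 fold change (points) with its 95% interval (bars) of each bile acid gene in the 4 comparisons, filled where the gene passed the criteria. Axes differ between panels, Baat and Slc10a1 are the filled points in WT/Floxed mice, 5 points are filled for ZFR against ZLR, and none is filled in the other panels.

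The wider bile acid pathway was followed with 13 further genes of synthesis and conjugation, 13 of transport and 18 of regulation. In WT/Floxed mice 40 of these 44 were tested, and 2 rose and 3 fell, a share to be read against the 4.35% of all genes. Of synthesis, 1 of 12 passed. Akr1d1, the reductase that sets the 5-beta ring junction of bile acids, had 16250, 17964, 16175, 20176 and 15579 normalized counts with saline and 8373 to 15372 with LNA29. The groups did not overlap, and the log2 change was -0.68 (SE 0.12, adjusted p = 0.0154).

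Of the transport list, which also holds the enzyme Ephx1, 3 of 12 passed. Abcg5, one of the pair of sterol exporters into bile, rose by 0.46 (SE 0.14, adjusted p = 0.15) from 4556 ± 1135 to 6126 ± 707 normalized counts. Ephx1, an epoxide hydrolase, rose by 0.51 (SE 0.13, adjusted p = 0.0748) from 16838 ± 2287 to 24105 ± 4455. The call of Ephx1 held without any 1 mouse, while that of Abcg5 was lost in 5 of 13 such fits (adjusted p up to 0.274). Slco1a4, an organic anion importer, passed as lower (log2 change -0.38, adjusted p = 0.177), but held only without LNA29 replicate 1, 2 or 4 or saline replicate 2 (adjusted p up to 0.353 in the other 9 fits). The largest estimate, that of the exporter subunit Slc51b (-1.11, adjusted p = 0.276), did not pass at 41.4 ± 8.34 and 22.8 ± 15.7 normalized counts. Of regulators, 1 of 16 passed, Nr5a2, the receptor LRH-1 that activates Cyp7a1 and Cyp8b1 transcription, with -0.32 (adjusted p = 0.132), and its call was lost in 6 of 13 fits without 1 mouse (adjusted p up to 0.287). Ppargc1a had the largest estimate of that list, -0.33, did not pass, and was -0.17 without saline replicate 3.

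In mice labelled L-Sirt1 KO none of the 40 wider genes tested passed. The largest estimates were those of the muricholic acid enzyme Cyp2c70 (0.53, adjusted p = 0.311), the importer Slco1a1 (1.10, adjusted p = 0.631, and 0.51 without LNA29 replicate 2) and the FGF co-receptor Klb (-0.58, adjusted p = 0.301). Of 3 genes known for their role in ileum, only Slc10a2, the apical importer, reached the minimum level. It passed as lower in WT/Floxed mice (log2 change -0.80, adjusted p = 0.177), with 831 ± 263 and 484 ± 159, although 8 of 13 fits without 1 mouse lost the call (adjusted p up to 0.333). It stood at 81.4 ± 23.7 and 105 ± 38.7 in the other genotype (log2 change 0.35, adjusted p = 0.681, and 0.12 without LNA29 replicate 3).

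Cell type, zone, clock and acute phase genes were read in the same livers, where fewer cells of a type and less RNA per cell cannot be told apart. In WT/Floxed mice 4 of 8 hepatocyte markers passed, Ahsg (0.93) and Apoa1 (0.51) as higher and Hpd (-0.37) and Tat (-0.48) as lower. Their summed level was 4974904 to 7974204 normalized counts with saline and 6899246 to 8757717 with LNA29, most of it Alb, and none was at 0. Of 8 acute phase genes 5 fell, with Saa2 furthest (-1.48), as did 2 of 8 portal zone genes, with the largest estimate in Pck1 (0.68, adjusted p = 0.582), and none of 8 central zone genes (Rhbg -0.65, adjusted p = 0.348). No cholangiocyte marker of 7 passed (Krt7 0.54, adjusted p = 0.599), nor any of 8 macrophage markers (Cd5l -0.60, adjusted p = 0.560). The macrophage sum was uneven, however, at 13479 to 23653 with saline (median 21291) and 7343 to 40601 with LNA29 (median 14237). LNA29 replicates 1, 2, 3 and 6 lay below all saline mice, and LNA29 replicate 4, at 40601, stood apart above all others. Of stellate markers the 2 collagens rose, with sums of 16423 to 20207 and 20537 to 27364, and of 7 sinusoidal endothelial markers Lyve1 fell (-0.51). The part of these genes in the bile acid gene values was not tested.

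In mice labelled L-Sirt1 KO, Ahsg alone of the hepatocyte markers passed (0.83), with a summed level of 5609515 to 6951517 with saline and 7058977 to 7988012 with LNA29. The 2 collagens passed as higher. The macrophage markers Clec4f (-0.29) and Vsig4 (-0.54) and the endothelial markers Lyve1 (-1.17) and Stab1 (-0.53) passed as lower. The macrophage sum was 16244 to 19527 with saline and 13057 to 16402 with LNA29, the endothelial sum 14534 to 15386 and 13360 to 14489, and the stellate sum 19192 to 23004 and 25388 to 29111. No cholangiocyte, zone, clock or acute phase gene passed. The largest estimates of the last lists were Cyp1a2 (0.62), Pck1 (0.51), Dbp (-3.04) and Saa2 (-1.44), and Cftr (0.50) among cholangiocyte markers.

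Dbp, an output gene of the daily clock whose level swings strongly over the day, was uneven within groups. It stood at 335, 50.7, 47.8, 63.7 and 1200 normalized counts in WT/Floxed saline mice and at 31.1 to 177 in LNA29 mice. In mice labelled L-Sirt1 KO it was 217, 146, 7449 and 480 with saline and 81.4, 86.6, 48.5 and 68.4 with LNA29. The saline mouse highest in Dbp was also highest in Cyp7a1 in both genotypes (WT/Floxed replicate 5, L-Sirt1 KO replicate 3), but the one second in Dbp was lowest in Cyp7a1 in both (replicates 1 and 4). The L-Sirt1 KO mouse highest in Cyp7a1, at 10132, had a Dbp of 81.4. Of 14 clock genes 1, Cry2, passed in WT/Floxed mice (-0.46, adjusted p = 0.0476). Cyp7a1 is itself a gene with a daily rhythm, and the part of the time of day in its values was not tested.

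Within groups, 3 relations between members were asked over the 13 WT/Floxed mice after removal of group means. Cyp7a1 and its repressor Nr0b2 gave Pearson's r = -0.374 (permutation p = 0.208, adjusted over the 3 pairs 0.361) and Spearman's rho = -0.533 (permutation p = 0.0640, adjusted 0.192). Without the 2 mice farthest from the median of Cyp7a1, r was -0.630. Cyp7a1 and Cyp8b1 gave r = 0.193 (permutation p = 0.522, adjusted 0.522) and rho = 0.275 (permutation p = 0.364, adjusted 0.364), with r = 0.0965 without the 2 farthest mice. Abcb11 and Nr0b2 gave r = -0.351 (permutation p = 0.241, adjusted 0.361) and rho = -0.412 (permutation p = 0.165, adjusted 0.247), with r = -0.514 without the 2 farthest. None passed the test.

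Of 15810 other genes, those that followed Cyp7a1 most closely over these 13 mice were Ror1 (r = 0.910), the complement gene C9 (0.908) and Dpf3 (0.890). Their r with Cyp7a1 over the 8 mice labelled L-Sirt1 KO was -0.243, -0.676 and 0.381. The most opposed were Astn2 (-0.89), Klf3 (-0.888) and Stag1 (-0.855), with -0.101, -0.28 and -0.0951 in mice labelled L-Sirt1 KO. These are descriptions of the extremes of many values, over mice that share runs and depth, and the opposed genes were added after their values were seen.

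In rats, the comparison of ZFR with ZLR asked how the same genes differ in obesity. Of 9 genes tested, Cyp7a1 rose and Cyp7b1, Baat, Slc10a1 and Abcb11 fell at an adjusted p below 0.05, which 4.25% of 8633 genes passed, 1.8% as higher and 2.46% as lower. Of the 9, 6 had an unadjusted p below 0.05, against 16.6% of all genes. In all 5 the groups did not overlap, as in 14.5% of all genes, and each had the smallest exact permutation p that 4 against 4 rats allow, 0.0286. The median log2 difference of the 9 was -0.44, against 0.07 over all genes.

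Cyp7a1 stood at 97.4, 47.8, 73.7 and 52.2 normalized counts in ZLR and at 153, 186, 163 and 165 in ZFR. Every ZFR lay above every ZLR, with means of 67.8 ± 22.8 and 167 ± 13.8 and a log2 difference of 1.34 (SE 0.22, adjusted p = 0.00777). The ZLR values of replicates 3 and 4 rested on 7 and 5 reads. Without the 3 libraries under 1 M reads, an alternative chosen after seeing the data, the difference was 1.28 with an adjusted p of 0.0501, just past the threshold.

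Cyp7b1, the enzyme of the alternative route, stood at 66.5, 110, 131 and 130 in ZLR and at 26.6, 30.7, 12.97 and 38.6 in ZFR. The ZLR replicate 1, at 66.5, was lowest of its group but still above all ZFR. The log2 difference was -2.01 (SE 0.34, adjusted p = 0.00978), and without libraries under 1 M reads it was -1.41 (adjusted p = 0.0277). The shallow ZLR libraries gave 12 reads each and ZFR replicate 3 gave 6.

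Baat had 2520, 2612, 1812 and 2987 in ZLR and 1207, 1181, 1473 and 1338 in ZFR. All ZFR lay below the lowest ZLR, with a log2 difference of -0.92 (SE 0.15, adjusted p = 0.00768), backed by at least 173 reads in each library. Slc10a1 had 1402, 1120, 1064 and 1159 in ZLR and 585, 486, 683 and 742 in ZFR, a log2 difference of -0.94 (SE 0.15, adjusted p = 0.00627), with at least 101 reads. Both calls held in each of the 8 fits without 1 rat and without libraries under 1 M reads.

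Abcb11 had 1145, 1105, 1001 and 1044 in ZLR and 714, 830, 846 and 786 in ZFR. The groups were narrow and apart, and the log2 difference was -0.44 (SE 0.09, adjusted p = 0.0257). The call was lost without ZLR replicate 1 or 2 or without any 1 ZFR (adjusted p 0.0504 to 0.0896), and without libraries under 1 M reads (-0.54, adjusted p = 0.0514). A term for replicate number also lost it. Abcb11 in both sets of rats was counted without a known strand setting.

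The remaining 4 genes did not pass. Cyp8b1 had 856, 1141, 969 and 1002 in ZLR and 378, 412, 691 and 902 in ZFR, where 3 of 4 ZFR lay below all ZLR (log2 difference -0.82, adjusted p = 0.127). Without ZFR replicate 4, the highest of its group, it passed with -1.05 (adjusted p = 0.0364), the only call in 8 fits without 1 rat. It also passed with sample quality weights (-1.16, adjusted p = 0.00648), under which 1169 of all genes passed, against 367 in the main fit. Without libraries under 1 M reads it did not pass (-0.93, adjusted p = 0.22). Without libraries under 5 M reads, which left 1 ZFR against 2 ZLR, it was -1.39. Cyp27a1 had 720, 438, 295 and 345 in ZLR and 554, 598, 493.0 and 577 in ZFR (0.39, interval -0.15 to 0.92), with ZLR replicate 1 above all other rats. It passed without that rat (0.64, adjusted p = 0.0489), stood at 0.22 without ZLR replicate 3, and was 0.037 (adjusted p = 0.949) without libraries under 1 M reads and -0.020 without those under 5 M. Nr1h4 had 203, 125, 168 and 219 in ZLR and 163, 152, 107 and 135 in ZFR (-0.35, interval -0.80 to 0.10, and -0.23 without ZFR replicate 3). Of these rats 3 ZLR lay above all ZFR and 1 ZFR below all ZLR, while the other 4 overlapped.

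Nr0b2 could not be read well in ZLR. It stood at 96.4 and 6.17 normalized counts in the deep ZLR libraries and at 42.1 in replicate 3, which was 4 reads, and it had 0 reads in replicate 4, which allows up to 31.3 normalized counts. In ZFR it was 67.8, 77.7, 71.0 and 34.2. The fitted log2 difference of 2.21 (interval -0.46 to 4.88) depends on the value added before taking logs and was 0.97 without ZLR replicate 4, and the deep ZLR libraries alone differed more than the groups.

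Each call among these 9 genes had the same sign in both flow cells, with 2 rats of each group on each. The log2 differences were 1.39 and 1.29 for Cyp7a1, -2.48 and -1.55 for Cyp7b1, -0.73 and -1.10 for Baat, -0.64 and -1.23 for Slc10a1 and -0.33 and -0.55 for Abcb11. The deep libraries, ZLR replicates 1 and 2 and ZFR replicate 1, were all on 1 flow cell. With only these 3, Cyp7a1 differed by 1.15, Cyp7b1 by -1.65, Baat by -1.09, Slc10a1 by -1.10 and Abcb11 by -0.65, the same signs, and none passed with a single ZFR.

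**Figure D4:**
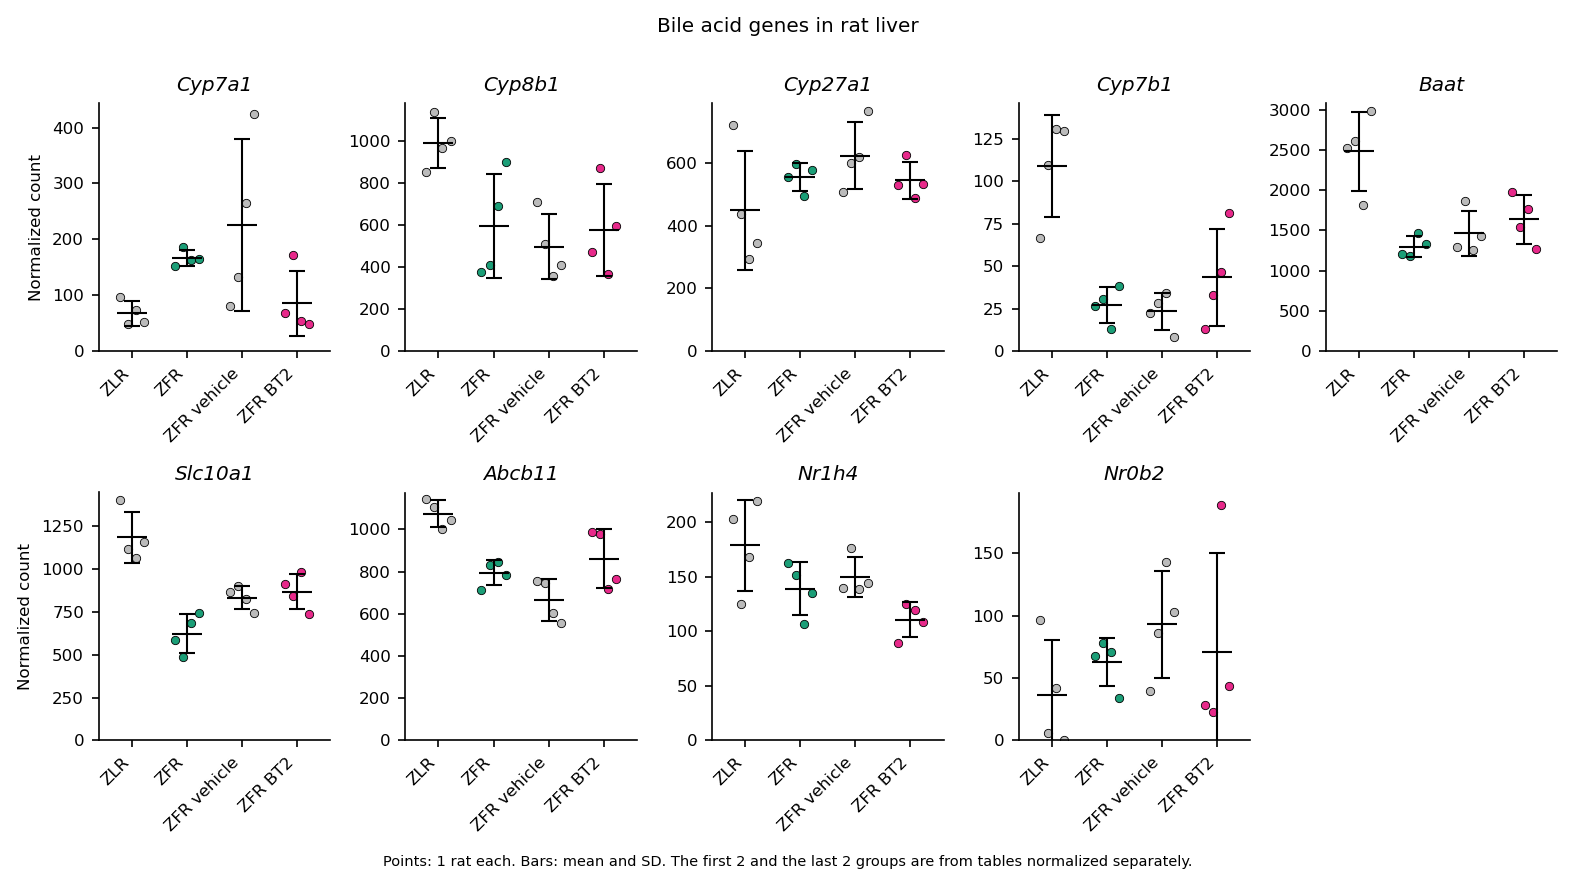
Normalized counts (linear axes from 0) of 9 bile acid genes in each of the 16 rats, by group, with mean and SD. ZFR points lie above ZLR points in Cyp7a1 and below them in Cyp7b1, Baat, Slc10a1 and Abcb11, while BT2 and vehicle points overlap in all genes but Nr1h4.

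Of the wider genes, 32 of 44 were tested in ZFR against ZLR, and 5 passed as lower and none as higher, against 4.25% of all genes called and 2.46% as lower. With 1 rat left out the count was 2 to 4. Of synthesis 3 of 10 passed. Amacr, the racemase of the side chain route, had 689, 592, 779 and 846 in ZLR and 313, 273, 376 and 376 in ZFR (-1.12, adjusted p = 0.00275). Slc27a5, the ligase that activates bile acids before Baat joins them to amino acids, had 1943, 1103, 895 and 835 against 712, 487, 359 and 501 (-1.17, adjusted p = 0.0483). Acox2, the peroxisomal side chain oxidase, passed too (-0.79, adjusted p = 0.0305). In all 3 the groups did not overlap, as in 14.5% of all genes. The call of Amacr held without any 1 rat, whereas that of Acox2 held only without ZLR replicate 3 (adjusted p up to 0.0947 otherwise) and that of Slc27a5 only without ZFR replicate 1 or ZLR replicate 4 (up to 0.144).

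Of transport 1 of 8 passed. Slco1a4 had 689, 457, 543 and 425 in ZLR and 85.3, 112, 149 and 72.5 in ZFR, a log2 difference of -2.35 (SE 0.23, adjusted p = 0.000568). Abcg5 had the largest estimate (-2.96, adjusted p = 0.102) at levels of 19.3 ± 9.65 and 1.70 ± 1.35, near the floor of the shallow libraries. Of regulators 1 of 14 passed, the constitutive androstane receptor Nr1i3, with 48.3, 19.1, 43.0 and 31.96 against 6.76, 14.4, 8.53 and 12.7 (-1.63, adjusted p = 0.0465). Its call held only without ZLR replicate 2 and was lost in the other 7 fits without 1 rat (adjusted p up to 0.132), while that of Slco1a4 held in all 8.

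Markers moved in the same rats. Of 8 hepatocyte markers 5 fell (Hpd furthest, -1.15), with a summed level of 237332 to 307091 normalized counts in ZLR and 185932 to 276619 in ZFR, most of it Alb. Of 8 stellate markers 3 rose (Acta2, Col3a1 and Col1a1, the last from 3.45 to 53.6 on average), with sums of 321 to 451 and 738 to 1132. Col1a1 was at 0 in ZLR replicates 3 and 4, where depth allows up to 31.6 and 31.3, so the size of its rise is uncertain. Of 6 endothelial markers 1 rose (Stab2, 1.16), and no macrophage (Marco 2.1, adjusted p = 0.0664) or cholangiocyte marker (Spp1 1.21, adjusted p = 0.534) passed. Of central zone genes 2 of 4 (Oat furthest, -1.41) and of portal zone genes 2 of 7 (Hal, -1.32) fell, and 4 of 5 acute phase genes rose (Lcn2 furthest, 5.66). The part of these in the bile acid gene values was not tested.

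Clock genes also stood apart between ZFR and ZLR, with 4 of 12 higher and 2 lower. Dbp had 4.55, 28.0, 7.37 and 0 normalized counts in ZLR and 109, 265, 272 and 181 in ZFR (5.01, adjusted p = 0.00922), so every ZFR was above every ZLR, and in the ZLR at 0 up to 31.3 is allowed by depth. Cyp7a1 was higher in ZFR too, and the part of the hour of collection in this was not tested.

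BT2 against vehicle in ZFR gave no call among the 9 genes and none over all 8405 genes tested (0% at an adjusted p below 0.05 by limma), with 332 genes, 3.95%, at an unadjusted p below 0.05. Of the 9, 3 had an unadjusted p below 0.05, all with an adjusted p of 0.898. Cyp7a1 had 80.4, 133, 266 and 423 normalized counts with vehicle and 67.6, 172, 54.9 and 48.9 with BT2. Of the BT2 rats 3 lay below all vehicle rats, and replicate 2 within the vehicle range (log2 difference -1.31, interval -2.44 to -0.17, exact permutation p = 0.114). The difference was -2.67 in 1 flow cell and 0.06 in the other. Without libraries under 1 M reads it was -0.54.

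Nr1h4 had 140, 177, 138 and 145 with vehicle and 88.9, 126, 119 and 109 with BT2. All BT2 rats lay below all vehicle rats, as in 2.96% of genes when either direction is counted, with a log2 difference of -0.44 (interval -0.81 to -0.08, exact permutation p = 0.0286) from 14 to 790 reads. Abcb11 had 754, 747, 604 and 558 with vehicle and 986, 976, 719 and 767 with BT2, and 3 of 4 BT2 rats lay above all vehicle rats (log2 difference 0.37, interval 0.03 to 0.71, exact permutation p = 0.114). Neither passed the adjusted test.

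The other genes had estimates of 0.19 (Cyp8b1), -0.19 (Cyp27a1), 0.76 (Cyp7b1), 0.16 (Baat), 0.06 (Slc10a1) and -0.79 (Nr0b2), all with intervals that included 0. With 1 rat left out, Baat ran from 0.063 (without BT2 replicate 1) to 0.28 (without vehicle replicate 2) and Cyp27a1 from -0.28 (without vehicle replicate 1) to -0.082 (without vehicle replicate 4). The interval of Slc10a1 ran from -0.22 to 0.33 and that of Baat from -0.21 to 0.53, while Cyp7b1, with 1 read in vehicle replicate 4, had one from -0.46 to 1.97 and stood at 0.35 without that rat. Nr0b2 was -0.44 without BT2 replicate 2 and -1.44 without BT2 replicate 3. Baat and Slc10a1, which were lower in ZFR than in ZLR, thus showed no detectable difference between BT2 and vehicle, in rats of another age and another table.

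None of the 31 wider genes tested passed with BT2, and none had an unadjusted p below 0.05. The largest estimates were Acot8 (-0.50), Atp8b1 (1.08) and Ppara (1.01), at 15.5 to 32.8 normalized counts on average. The sign of the last 2 rested on vehicle replicate 4, a library of 0.193 M reads in which both were at 0. Without it Atp8b1 was -0.22 and Ppara -0.073, and Acot8 was -0.16 without BT2 replicate 1. Dbp stood at 55.2, 117, 316 and 311 with vehicle and 62.8, 73.2, 34.1 and 7.60 with BT2 (-2.21, adjusted p = 0.898). No cell type, zone or acute phase gene passed, the largest estimates being Fgb (0.49), Epcam (0.65), Dcn (1.32), Marco (-0.51), Fcgr2b (0.30), Glul (-0.54), Gls2 (-0.29) and Lcn2 (1.69). Dcn was also at 0 in vehicle replicate 4, where depth allows up to 31.0 normalized counts. The part of the time of day was not tested.

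Side by side, Baat and Slc10a1 were those of the 10 genes that passed in more than 1 comparison, with log2 changes of -0.42 and -0.30 for LNA29 in WT/Floxed mice and of -0.92 and -0.94 for ZFR against ZLR. Cyp7a1 had estimates of -1.02, 0.45, 1.34 and -1.31 in the order WT/Floxed, L-Sirt1 KO, ZFR against ZLR and BT2. The third passed, and the second was 0.037 without 1 mouse. Nr1h4 and Nr0b2 passed in none. Species, sex, age and treatment differ between these comparisons, and differences between them were tested only for both mouse genotypes.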

How the data were processed

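Normalized counts in liver RNA-seq libraries of 21 mice and 16 rats were used. The deposited signal values are gene-level normalized counts: per the submitters' processing notes and the study's methods, the authors aligned reads with STAR to mm10 or rn6, quantified them with Salmon and scaled them with DESeq2, 1 table per experiment. Every column was matched to a labelled sample. Depth was estimated from the value of 1 read, since 69.3% to 90.3% of low values per library were whole multiples of it (within 0.01 read). Entries without a name (381 in mice, 201 in rats) were left out, at most 0.0461% of the signal. Those with a repeated name (130 and 4523) were left out too, at most 2.17% of it.

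The 10 genes and all gene lists were chosen with earlier results of these data known. Genes with a table mean of at least 10 were tested with limma 3.58.1 (R 4.3.3) on log2(normalized count + 1) with a mean-variance trend, since the files hold no raw counts, and p-values were adjusted by Benjamini-Hochberg over all genes tested. The criteria in mice were p below 0.05, adjusted p below 0.2, mean above 50 and fold above 1.2, and in rats an adjusted p below 0.05. Single genes were also tested by exact two-sided permutation (SciPy 1.17.1). Fold changes on this scale understate changes of low genes. All samples are labelled as separate animals. The fits were tested on simulated data, in which 2-fold changes were recovered in part, least in the rat tables.

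All 10 genes are named. Of the wider lists each gene that passed (at most 4 by size) or else that of largest estimate is named, and of other lists the largest, with further genes named where their counts needed it. The alternatives tried were sample weights, TMM-type scaling, no minimum mean, a pseudocount of 10, terms for flow cell, background or replicate number, leaving out each animal, and leaving out libraries under 5 M or, chosen after seeing the data, 1 M reads. Mouse sequences and positions come from GENCODE M21 and RefSeq (GRCm38). Rat sequence was not used here.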

Additional observations from a re-analysis of the deposited data

Results flagged for a closer look

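Over the 10 genes and the groups of 4, 5 or 8 animals there were 76 sets of values, of which 5 held 1 animal whose gap to the next was large for the range of its set, where chance gives about 1 in 20. Cyp7b1 in WT/Floxed LNA29 replicate 3 stood at 2696 normalized counts, against 1331 to 1915 in the other 7 mice. Cyp7a1 in L-Sirt1 KO LNA29 replicate 1 stood at 10132, against 2870 to 3751 in the other 3. Cyp7a1 in ZFR BT2 replicate 2 stood at 172, against 48.9 to 67.6, and Nr0b2 in ZFR BT2 replicate 3 at 189, against 22.7 to 43.5. Nr1h4 in ZFR vehicle replicate 2 stood at 177, against 138 to 145. Their causes were not tested.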

How the results depend on the processing

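Among the 10 genes, log2 changes not named here kept their sign under every alternative. In WT/Floxed mice the count of genes called lower, 2, became 1 with no minimum mean, 1 at an adjusted p below 0.05 alone, 1 in floxed mice alone and 0 in WT mice alone, and ranged from 1 to 4 with 1 mouse left out. Besides Baat and Slc10a1, Cyp27a1 was called lower with sample weights and Cyp7a1 with a background term. The count called higher, 0, became 1 (Abcb4) with a background term. In ZFR against ZLR the gene called higher became 0 without libraries under 5 M or under 1 M reads, and those called lower became 0 without libraries under 5 M, which left 1 ZFR against 2 ZLR, so that loss says little. With 1 rat left out the count called higher was 1 to 2. For the difference between genotypes 3 members (Baat, Cyp7b1 and Abcb4) were called with sample weights, when 1220 of all genes were, against 0 to 1 with 1 mouse left out. The causes were not tested.

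Wider genes called, 5 in WT/Floxed mice, became 2 with no minimum mean, 11 with sample weights, 1 at an adjusted p below 0.05 alone and 0 in WT mice alone (2 to 7 with 1 mouse left out). In L-Sirt1 KO mice they became 6 with sample weights (0 to 2). In ZFR against ZLR, 5 became 2 with no minimum mean, 13 with sample weights and 0 without libraries under 5 M (2 to 4).

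Replicate numbers are shared between groups, but deviations of same-numbered animals correlated from -0.281 to 0.241, so the numbers were not taken as pairs. A replicate block left 0 of the 10 genes called lower and 0 wider genes in WT/Floxed mice, 3 wider genes in ZFR against ZLR, and gave Nr0b2 0.10 in WT/Floxed mice. Of members, the block lost the calls of Baat (adjusted p = 0.597) and Slc10a1 (adjusted p = 0.742) in WT/Floxed mice and of Abcb11 in ZFR against ZLR (adjusted p = 0.106). Over all genes it changed calls from 688 to 55 in WT/Floxed mice, 297 to 145 in L-Sirt1 KO mice, 367 to 221 in ZFR against ZLR and 7 to 0 for the difference between genotypes.

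Over all genes, the 688 calls in WT/Floxed mice became 988 with a background term. They became 396 with no minimum mean, 1308 with sample weights, 216 at an adjusted p below 0.05 alone and 88 in WT mice alone. The 297 in L-Sirt1 KO mice became 160, 804 and 39 in that order, and 103 with flow cell as a term. The 367 in ZFR against ZLR became 241 with no minimum mean, 1169 with sample weights and 55 without libraries under 5 M. BT2 gave 1 call with a pseudocount of 10 or sample weights and 2 without libraries under 1 M. The difference between genotypes gave 19 with flow cell as a term and 50 with floxed mice alone.

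The following log2 values changed sign, among them those of Atp8b1, Acot8 and Ppara with BT2, which were not small (1.08, -0.50 and 1.01). In WT/Floxed mice Cyp8b1 was 0.049 with flow cell as a term and 0.18 in WT mice alone, Abcb11 -0.10 and Ppargc1a 0.024 in floxed mice alone, and Nr0b2 0.051 with sample weights. In L-Sirt1 KO mice Baat was -0.033 with flow cell as a term. In ZFR against ZLR Cyp27a1 was -0.020 without libraries under 5 M, and Nr1h4 0.026 there and 0.028 with sample weights. With BT2, Slc10a1 was -0.0085 and Atp8b1 -0.040 with sample weights, and without libraries under 1 M Acot8 was 0.024 and Atp8b1 -0.43. For the difference between genotypes Cyp27a1 was 0.040 and Abcb11 0.098 with sample weights, and 0.017 and 0.12 with floxed mice alone.

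With 1 animal left out, the lowest and highest log2 values were -0.28 and 0.13 for Cyp8b1, -0.036 and 0.10 for Abcb11 and -0.20 and 0.087 for Nr0b2 in WT/Floxed mice. In L-Sirt1 KO mice they were -0.051 and 0.071 for Baat, -0.080 and 0.066 for Abcb11 and -0.092 and 0.057 for Nr1h4. With BT2 they were -0.035 and 0.38 for Cyp8b1, -0.0074 and 0.13 for Slc10a1, -0.22 and 1.56 for Atp8b1 and -0.073 and 1.57 for Ppara, both lowest without vehicle replicate 4. For the difference between genotypes they were -0.11 and 0.056 for Abcb11, -0.078 and 0.014 for Cyp27a1 and -0.020 and 0.16 for Slc10a1. The r of Cyp7a1 with Nr0b2 ran from -0.66 to -0.27 and that with Cyp8b1 from -0.036 to 0.41. Leaving out libraries under 5 M reads left 1 library in the BT2 table and was not run there. In rats depth limited Cyp7a1, Cyp7b1 and Nr0b2 most, with 5, 1 and 0 reads in their shallowest library.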
